A study of Homo sapiens with 6 samples.

Results

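Expression of 10 genes from the contractile programme of serum response factor (SRF) and Yes-associated protein (YAP) was examined in CAL62 cells. The genes were SRF, ACTA2, TAGLN, MYL9, CNN1, CALD1, VCL, ANKRD1, AMOTL2 and ACTB. They were found by symbol through the Ensembl identifiers of the count and TPM tables, which hold 39168 identifiers in all. Of rows sharing an identifier, the one with most counts was taken. No difference between the groups entered this rule, but the genes were chosen with earlier results of these data known. All 10 had a row. CAL62 is an established cell line from human anaplastic thyroid carcinoma, labelled wild type here. The 3 erianin libraries came from cells given 50 nM erianin, a compound derived from Dendrobium, for 48 h, and the 3 DMSO libraries from cells given a matching concentration of the solvent DMSO for 48 h. The series therefore describes 1 cell line, 1 dose and 1 time. The series text calls the 3 libraries of a group replicate experiments without saying whether the cultures were separate, so the p-values measure the spread between these libraries.

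SRF is a transcription factor that binds a DNA element called the CArG box. Its cofactors of the myocardin-related family (MRTF) are held back by monomeric actin and enter the nucleus when actin polymerises, so that genes of the actin cytoskeleton answer to the state of actin itself. YAP is a coactivator that works through the TEAD family of DNA-binding factors. It is held out of the nucleus by the Hippo kinases and let in by cell spreading and tension, which small GTPases and the kinase ROCK control. In smooth muscle the SRF targets build the contractile apparatus. In other adherent cells, including carcinoma cells, many of them form stress fibres and focal adhesions.

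Reads counted on named genes ranged from 25776301 to 34107727 per library. DMSO replicate 3 stood apart from the other libraries of its group. Its Euclidean distance in log2 CPM (read counts of a gene scaled to a common library size, with TMM factors for composition) was 64.1 to DMSO replicate 1 and 62.9 to DMSO replicate 2, against 37.2 between these and from 28.2 to 29 among the erianin libraries. Distances to the erianin libraries ran from 58.5 to 62.3 for DMSO replicates 1 and 2 and from 68.3 to 69.3 for DMSO replicate 3. For the median of the 12821 genes tested, DMSO replicate 3 differed from the mean of the other DMSO libraries by 0.30 on the log2 scale in either direction, where DMSO replicates 1 and 2 differed by 0.09. All 6 libraries entered the main comparison, and the value of each testable contractile gene is also given without DMSO replicate 3. Of the thyroid follicular markers, PAX8 was abundant, at 676 ± 55.2 CPM in the DMSO and 428 ± 7.88 CPM in the erianin group (SD, n = 3 each), while TSHR and NKX2-1 were listed at 0 in all 6 libraries. Thyroglobulin (TG) had at most 13 counts in a library. Of the 8 markers that define smooth muscle, KCNMB1 was listed at 0 in every library, DES had at most 14 counts, and MYH11 averaged 0.858 CPM with DMSO. Their summed level ranged from 294 to 305 CPM with DMSO and from 284 to 295 CPM with erianin, and nearly all of it was SMTN, at 293 ± 6.92 and 285 ± 4.92 CPM (SD, n = 3 each). The 7 fibroblast markers summed to between 43.7 and 48.2 CPM with DMSO and between 50.8 and 57.1 CPM with erianin, with DCN at 0 throughout. Its main parts went opposite ways, COL1A2 from 9.8 to 24.9 CPM and COL1A1 from 34.7 to 27.8 CPM. The 7 epithelial and carcinoma markers summed to between 4050 and 4621 CPM with DMSO and between 3669 and 3829 CPM with erianin. That sum includes VIM, which averaged 1289 CPM with DMSO and 932 CPM with erianin, and KRT8, at 1408 and 1418 CPM. KRT18 averaged 890 and 771 CPM and KRT19 479 and 414 CPM, with overlapping groups for both. EPCAM was higher with erianin, at 18.7 and 22.4 CPM, and was not called (edgeR adjusted p = 0.132). CDH1, of the same list, had at most 9 counts in a library. The 7 thyroid markers summed to between 644 and 742 CPM with DMSO against between 421 and 435 CPM with erianin. Of the tested markers, edgeR called PAX8, KRT7 and VIM lower and COL1A2 higher, and none of the smooth muscle list. The part of these marker differences in the results that follow was not tested.

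The contractile genes were first compared between erianin and DMSO with all 6 libraries. None of the 9 genes with enough reads to test was called higher or lower by edgeR's quasi-likelihood test at a Benjamini-Hochberg adjusted p under 0.05 over all 12821 genes tested, of which 7.22% were called higher, 7.69% lower and 14.9% either way. At these shares few calls would fall among 9 genes, so the lack of calls does not show that the set was unchanged. At an unadjusted p under 0.05, VCL alone of the 9 passed, against 30.9% of all genes tested, and with DESeq2 VCL was called lower (adjusted p = 0.0472), where 11.3% of all genes were lower and 10.4% higher. Log2 fold changes of erianin over DMSO ran from -0.41 for ACTA2 to 0.03 for AMOTL2, with 8 of the 9 below 0 and a median of -0.08, beside 0.00 for all genes tested. The 95% interval stayed within 0.5 of no change on the log2 scale for SRF, MYL9, VCL, AMOTL2 and ACTB. For ACTA2, TAGLN, CALD1 and ANKRD1 it reached further, so larger changes of these 4 genes lay inside their intervals. With a correction for GC content VCL was again the 1 gene called, lower, beside 7.50% of all genes higher and 15.9% lower. Without DMSO replicate 3, edgeR called CALD1 higher and TAGLN, VCL, MYL9 and ACTB lower, with 27.5% of 13053 genes called higher and 27.7% lower in that fit. With both changes together AMOTL2 was called higher and TAGLN, VCL and ANKRD1 lower, beside 15.2% and 34.4% of all genes and a median of -0.08. In bulk RNA, fewer cells expressing a gene and less RNA per cell cannot be told apart.

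**Figure D1:**
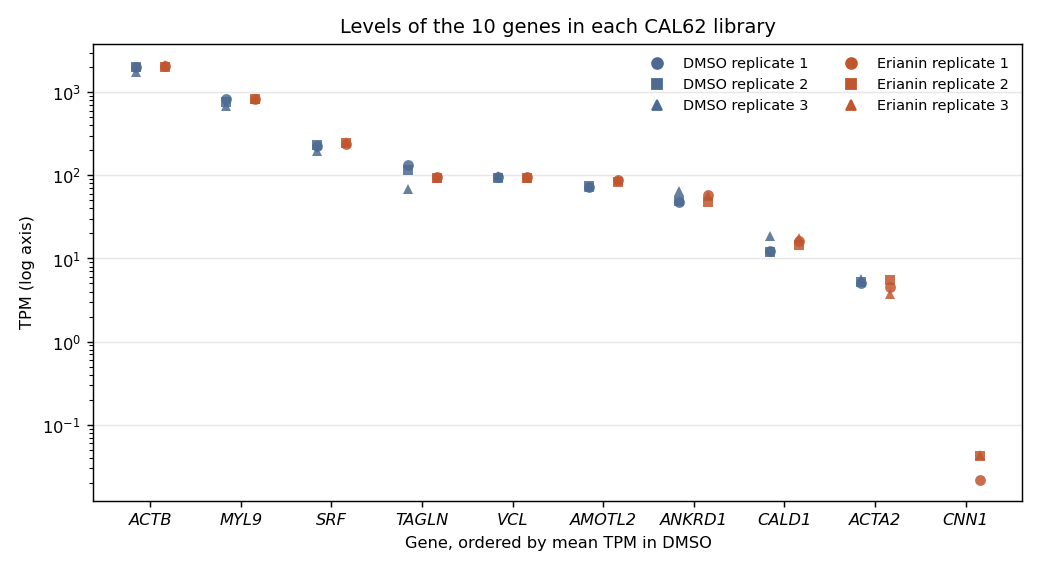
TPM of each gene (y axis, log scale) in each of the 6 libraries, with genes on the x axis in order of their DMSO mean, DMSO in blue and erianin in orange, and a marker shape for each replicate number. Means ran from 1922 TPM for ACTB to 5.33 TPM for ACTA2 with DMSO, and CNN1, at 0 TPM in the DMSO libraries, has points for erianin only.

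Levels of different genes were compared in TPM, which divides counts by gene length. The genes kept the same order of mean TPM in both groups. ACTB, the cytoplasmic beta-actin, led with 1922 ± 149 TPM in DMSO and 2088 ± 56.8 TPM in erianin (SD, n = 3 each). MYL9, a regulatory light chain of non-muscle and smooth muscle myosin, followed at 762 ± 67.2 and 832 ± 9.99 TPM, and SRF at 219 ± 17.7 and 245 ± 6.38 TPM (SD, n = 3 each). Below these, TAGLN (107 TPM in DMSO), VCL (95.7 TPM), AMOTL2 (72.8 TPM) and ANKRD1 (53.8 TPM) lay close together, and CALD1 (14.3 TPM) and ACTA2 (5.33 TPM) were lower. Neighbours in the order did not overlap between libraries of a group except TAGLN and VCL, whose ranges overlapped with DMSO and with erianin. In DMSO, ACTB exceeded 99.8% and MYL9 99.1% of the tested genes in mean TPM, SRF 96.2%, CALD1 55.6% and ACTA2 35.6%. CNN1 was at 0 TPM in DMSO and averaged 0.0354 TPM in erianin.

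SRF, the factor itself, lies on chromosome 6 from 43171299 to 43181507 on the plus strand (GENCODE release 29 on GRCh38, the annotation used for all gene positions here). SRF binds its own promoter in many cells. The box was searched as 10 bases that open with CC, close with GG and hold only A or T between. Boxes with a mismatch, such as CCCTATATGG in a window of ACTA2, were not counted. In 1 of the 2 SRF windows of 250 bases before a RefSeq start (GRCh38.p14), 2 exact CArG boxes were found. They were the only exact ones among the 13 windows held for 7 of the 10 genes. An exact CArG box stood in 1.16% of the 35116 windows of this length. The box reads alike on both strands. The window is printed because it carries the factor's own element, in capitals:
SRF (chr6:43171019-43171268, plus strand): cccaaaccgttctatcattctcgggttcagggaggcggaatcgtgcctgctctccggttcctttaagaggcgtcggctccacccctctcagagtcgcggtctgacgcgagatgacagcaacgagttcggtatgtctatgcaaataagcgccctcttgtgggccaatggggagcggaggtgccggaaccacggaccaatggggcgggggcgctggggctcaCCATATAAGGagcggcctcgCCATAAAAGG
The first bases of the boxes lie 30 and 10 bases before the start. A match describes the letters only and is no evidence of binding.

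SRF was steady across the libraries. In order of replicate number, the DMSO libraries had 159, 159 and 150 CPM, the erianin libraries 149, 153 and 155 CPM, so that the groups overlapped within a narrow range. The log2 fold change was -0.03 (standard error 0.06, 95% interval -0.18 to 0.12, edgeR adjusted p = 0.781), and -0.06 without DMSO replicate 3 (edgeR adjusted p = 0.214). In TPM every erianin library was above every DMSO library, from 240 to 252 against 198 to 229. In that unit the median log2 fold change of all genes tested was itself 0.18 on the log2(TPM + 1) scale, and that of SRF was 0.16 (limma adjusted p = 0.213).

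**Figure D2:**
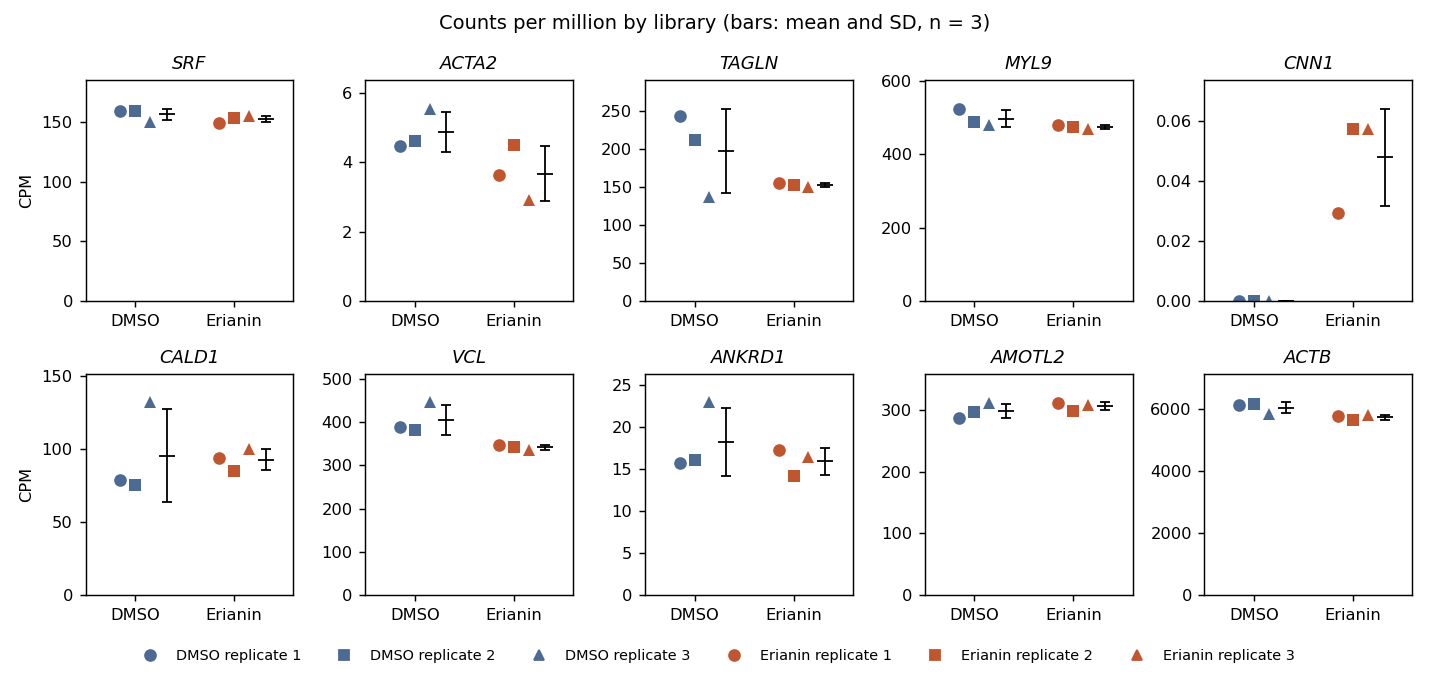
CPM of each of the 10 genes (y axis, from 0) in the DMSO (blue) and erianin (orange) libraries, with the replicate number shown by the marker and the mean and SD of 3 libraries drawn beside the points. DMSO replicate 3, the blue triangle, is the lowest DMSO library for TAGLN, at 137 CPM, and the highest for CALD1, VCL and ANKRD1, at 132, 445 and 22.9 CPM.

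Among the actins, ACTB (chromosome 7, 5527147 to 5563784, minus strand) is the ubiquitous cytoplasmic isoform and ACTA2 (chromosome 10, 88935074 to 88991339, minus strand) the alpha isoform of smooth muscle. ACTB had 6113, 6162 and 5851 CPM in the DMSO libraries and 5761, 5646 and 5794 CPM in the erianin libraries. In CPM the groups did not overlap, erianin being lower, and VCL was the only other of the 9 genes of which this held. Among all genes tested, 19.3% had non-overlapping groups with erianin lower, 19.5% with erianin higher and 38.7% in either direction. The log2 fold change was small, -0.08 (standard error 0.07, 95% interval -0.24 to 0.09, edgeR adjusted p = 0.510), and without DMSO replicate 3 it was -0.10 with an adjusted p of 0.0230 from edgeR. In TPM the groups of ACTB also did not overlap, but in the opposite direction, with 1992, 2022 and 1751 TPM in the DMSO and 2096, 2028 and 2141 TPM in the erianin libraries (0.12 on the log2(TPM + 1) scale, where the median gene was at 0.18). ACTA2 was scarce, with 109, 150 and 173 counts in the DMSO and 124, 157 and 102 counts in the erianin libraries. These correspond to 4.48, 4.62 and 5.55 CPM and to 3.63, 4.49 and 2.91 CPM, with erianin replicate 2 inside the DMSO range. Its log2 fold change of -0.41 had a wide interval, from -0.86 to 0.04 (standard error 0.19, edgeR adjusted p = 0.197), and it was -0.31 without DMSO replicate 3 (edgeR adjusted p = 0.139). ACTA2 stayed below 0 in all 18 alternative fits, between -0.58 and -0.19, and passed in none of them. It overlaps STAMBPL1 and FAS on the opposite strand, which had 3263 and 1240 counts summed over the 6 libraries. Without a stated strand setting, reads of these genes cannot be told apart where they overlap.

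The makeup of actin transcripts was compared within each library, where library scaling drops out. ACTG1, the other cytoplasmic isoform, made up 52.8%, 51.9% and 52.1% of the summed TPM of the 6 actin genes in the DMSO libraries and 50.8%, 51.1% and 50.5% in the erianin libraries. The share of ACTB was 47.6% ± 0.481 in DMSO and 49.1% ± 0.301 in erianin (SD, n = 3 each), without overlap between the groups (two-sided exact permutation test, p = 0.10, the smallest that 3 against 3 libraries allow). The share of ACTA2 was 0.133% ± 0.0204 with DMSO and 0.109% ± 0.0242 with erianin (SD, n = 3 each, exact permutation p = 0.30). ACTA1, ACTC1 and ACTG2, the actins of skeletal, cardiac and enteric smooth muscle, had between 0 and 14 counts in a library. The actin genes are near-identical in their coding parts, so reads could have been split between them by the counting.

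Of the actin-binding proteins and myosin, TAGLN (transgelin, chromosome 11, 117199321 to 117204782, plus strand) varied widely between the DMSO libraries. The DMSO libraries had 244, 212 and 137 CPM in order of replicate number, the erianin libraries 156, 153 and 150 CPM. DMSO replicates 1 and 2 thus lay above all erianin libraries and DMSO replicate 3 below them. With all 6 libraries the log2 fold change was -0.37 (standard error 0.19, 95% interval -0.81 to 0.07, edgeR adjusted p = 0.228). Without DMSO replicate 3 it was -0.58 (standard error 0.05, 95% interval -0.68 to -0.48, edgeR adjusted p = 4.20e-12), the largest change of the 9 genes in that fit. The DMSO coefficient of variation was 27.9% with all 3 libraries, against 2.02% among the erianin libraries. TAGLN overlaps the gene PCSK7 on the opposite strand, and without a stated strand setting reads of such pairs cannot be told apart.

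CALD1, which encodes caldesmon, an actin- and myosin-binding regulator of contraction, had the opposite arrangement of DMSO libraries. It lies on chromosome 7 from 134744252 to 134970728, plus strand. Its CPM was 78.6, 75.7 and 132 in the DMSO libraries and 93.6, 85.1 and 99.8 in the erianin libraries. DMSO replicates 1 and 2 were below every erianin library, and DMSO replicate 3 was above them. The log2 fold change was -0.04 (standard error 0.21, 95% interval -0.53 to 0.45, edgeR adjusted p = 0.921), and 0.26 without DMSO replicate 3 (standard error 0.06, edgeR adjusted p = 0.000171). With a GC correction added to that fit, CALD1 was at 0.06 and no longer passed (edgeR adjusted p = 0.362).

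MYL9 (chromosome 20, 36541484 to 36551447, plus strand) had 524, 489 and 479 CPM in the DMSO and 479, 474 and 469 CPM in the erianin libraries, so DMSO replicate 3 and erianin replicate 1 were equal to 3 digits. Its log2 fold change was -0.07 (standard error 0.07, 95% interval -0.22 to 0.09, edgeR adjusted p = 0.546), and -0.10 without DMSO replicate 3 (edgeR adjusted p = 0.0390). The related light chain gene MYL12B went from 287 ± 10.0 to 350 ± 18.7 CPM (SD, n = 3 each), at 0.29 on the log2 scale (edgeR adjusted p = 0.0364) that passed in 8 of 18 alternative fits. It failed when any library but DMSO replicate 3 was left out, with the replicate block, with the GC correction and without the low-count filter, with adjusted p values reaching 0.362 in edgeR. MYL12B was not among the genes chosen by the naming rule and is given because it is a paralog of MYL9. The ratio of MYL9 to MYL12B TPM was 2.08, 2.05 and 2.02 in the DMSO libraries and 1.56, 1.71 and 1.55 in the erianin libraries, with no overlap.

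CNN1, the smooth muscle calponin (chromosome 19, 11538717 to 11550323, plus strand), had 0 counts in all 3 DMSO libraries and 1, 2 and 2 counts in the erianin libraries. These are below 3 counts, the limit that a count of 0 allows, which corresponds to between 0.0857 and 0.123 CPM at these depths. No difference was detectable at this depth, and no fold change is given. The calponins of non-muscle cells were present, with CNN2 at 129, 124 and 116 TPM and CNN3 at 67.1, 65.2 and 87.1 TPM in the DMSO libraries.

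VCL encodes vinculin, which ties integrin adhesions to actin. It lies on chromosome 10 from 73995193 to 74121363, plus strand. Its CPM was 388, 381 and 445 in the DMSO libraries and 347, 342 and 336 in the erianin libraries. The groups did not overlap, and DMSO replicate 3 was the highest library. The log2 fold change was -0.24 (standard error 0.08, 95% interval -0.43 to -0.06, edgeR adjusted p = 0.0823), and -0.17 without DMSO replicate 3 (standard error 0.04, edgeR adjusted p = 0.000353). VCL passed in 5 of 18 alternative fits, among them DESeq2 and the fit with the GC correction (-0.33, edgeR adjusted p = 0.0121), and stayed below 0 in all 18, between -0.33 and -0.04. With the GC correction the median of all genes was -0.08. In TPM its groups overlapped, at 95.7 ± 3.25 and 92.8 ± 1.29 (SD, n = 3 each). VCL overlaps AP3M1 on the opposite strand.

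**Figure D3:**
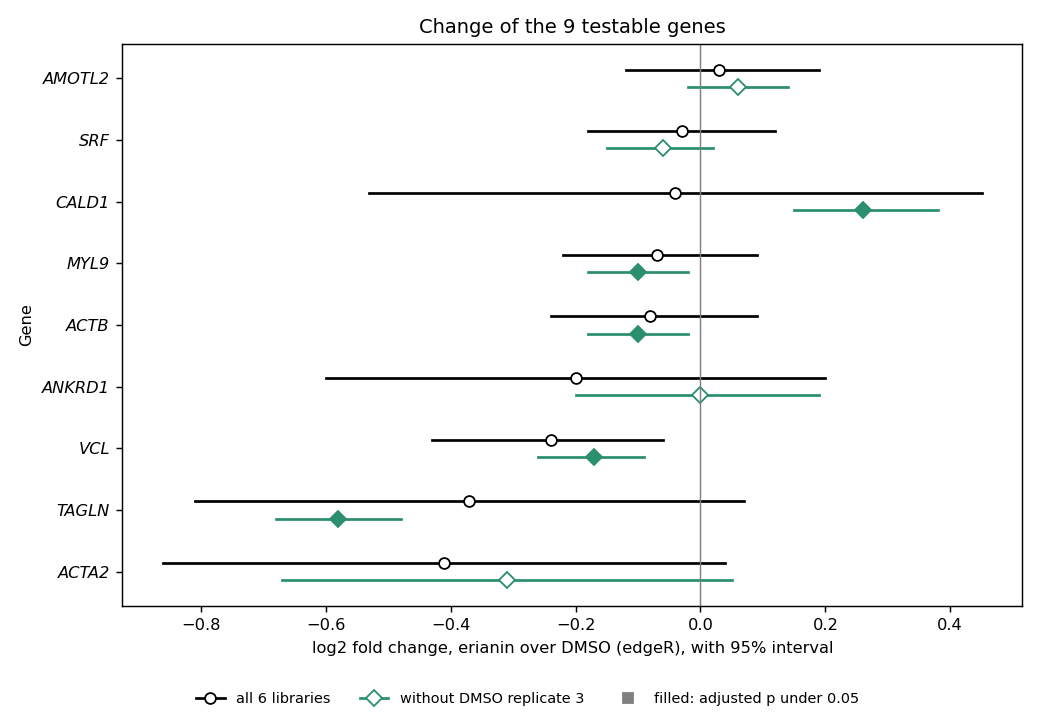
Log2 fold change of erianin over DMSO (x axis) with its 95% interval for the 9 testable genes (y axis), from edgeR with all 6 libraries (black circles) and without DMSO replicate 3 (green diamonds), filled where the adjusted p is under 0.05. No gene is filled with all libraries, and TAGLN, VCL, MYL9, ACTB and CALD1 are filled without DMSO replicate 3, TAGLN at -0.58 and CALD1 at 0.26.

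The 2 YAP target genes were ANKRD1, an ankyrin repeat protein that is also made in stressed heart muscle, and AMOTL2, an angiomotin that binds YAP and holds it back. The TEAD core motif, searched as GGAATG or CATTCC to cover both strands, stood in 11.9% of all 35116 windows of 250 bases before a RefSeq start, and in at least 1 window of 14.3% of the 27305 symbols that have one. Of the 7 genes here with a window, 5 held it in at least 1, namely ACTA2, CALD1, VCL, ANKRD1 and AMOTL2. More windows give a gene more chances of a match. The motif stood in 2 of 4 windows of CALD1 and in 1 of 2 each of ACTA2 and AMOTL2. The count was not tested against these shares. The ANKRD1 window held 2 copies and is printed for that reason, beside the AMOTL2 window that held 1 and the VCL window that held 1, with the motif in capitals:
ANKRD1 (chr10:90921088-90921337, minus strand): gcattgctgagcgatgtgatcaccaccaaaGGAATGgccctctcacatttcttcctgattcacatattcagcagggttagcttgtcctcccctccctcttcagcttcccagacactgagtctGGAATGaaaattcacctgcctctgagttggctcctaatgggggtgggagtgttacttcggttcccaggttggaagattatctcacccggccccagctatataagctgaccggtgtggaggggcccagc
AMOTL2 (chr3:134374448-134374697, minus strand): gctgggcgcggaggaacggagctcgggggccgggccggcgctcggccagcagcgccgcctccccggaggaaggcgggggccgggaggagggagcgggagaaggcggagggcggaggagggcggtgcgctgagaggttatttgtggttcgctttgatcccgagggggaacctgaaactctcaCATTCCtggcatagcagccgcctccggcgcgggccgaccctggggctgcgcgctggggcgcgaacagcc
VCL (chr10:73997866-73998115, plus strand): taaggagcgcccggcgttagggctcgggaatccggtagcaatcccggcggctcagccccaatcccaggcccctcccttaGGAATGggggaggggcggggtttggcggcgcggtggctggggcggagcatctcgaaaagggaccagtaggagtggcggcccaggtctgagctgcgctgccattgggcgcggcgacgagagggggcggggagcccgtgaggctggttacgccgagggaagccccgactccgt
In ANKRD1 the copies begin 220 and 128 bases before the start, in AMOTL2 69 bases and in VCL 171 bases. TAGLN, MYL9 and ACTB had no window in the table used.

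ANKRD1 (chromosome 10, 90912096 to 90921276, minus strand) had 15.7, 16.1 and 22.9 CPM in the DMSO and 17.2, 14.1 and 16.4 CPM in the erianin libraries, with DMSO replicate 3 above the other 5. The log2 fold change was -0.20 (standard error 0.17, 95% interval -0.60 to 0.20, edgeR adjusted p = 0.483). Without DMSO replicate 3 it was -0.00, with an interval from -0.20 to 0.19. With the GC correction it was -0.33 (edgeR adjusted p = 0.0730), and with both changes ANKRD1 was called lower, at -0.26 (edgeR adjusted p = 0.0223). The median of all genes was -0.08 in each of these fits. AMOTL2 (chromosome 3, 134355874 to 134375479, minus strand) had 288, 297 and 311 CPM in the DMSO and 312, 299 and 308 CPM in the erianin libraries, which overlapped. Its log2 fold change was 0.03 (standard error 0.07, 95% interval -0.12 to 0.19, edgeR adjusted p = 0.770), and 0.06 without DMSO replicate 3 (edgeR adjusted p = 0.212). In TPM its groups separated, from 71.5 to 74.8 with DMSO against 82.4 to 87.3 with erianin, and limma on log2(TPM + 1) called AMOTL2 higher by 0.23 (adjusted p = 0.0496), where 17.3% of 11670 genes were called higher, 2.34% lower, and the median gene was at 0.18. With a pseudocount of 0.1 it was not called (limma adjusted p = 0.0545).

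The opposite pattern of DMSO replicate 3 in these genes was compared with all genes tested. Against the mean of DMSO replicates 1 and 2 on the log2(CPM + 0.5) scale, this library was lower by 0.73 for TAGLN and higher by 0.77 for CALD1 and 0.52 for ANKRD1. Shifts smaller than these in either direction were seen for 90.1%, 91.6% and 75.9% of the tested genes. For SRF, MYL9, AMOTL2 and ACTB the shift was between -0.08 and 0.09, and only 12.7% to 16.3% of tested genes had a smaller one. VCL and ACTA2 lay between, at 0.21 and 0.26.

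The upstream factors of both arms were listed next. Of 6 SRF cofactors and ternary complex factors, MRTFA and MRTFB were listed at 0 in all 6 libraries and 4 were tested, none of which was called. ELK3, a ternary complex factor that partners SRF, had 252, 237 and 358 CPM with DMSO and 197, 213 and 212 CPM with erianin, at -0.45 on the log2 scale (edgeR adjusted p = 0.0922). It passed in 5 of 18 alternative fits, among them DESeq2 and the fit without DMSO replicate 3 (-0.24, edgeR adjusted p = 2.07e-05). Values for ELK1 and ELK4 were -0.09 and 0.08 (edgeR adjusted p = 0.400 and 0.722). MYOCD, the muscle cofactor myocardin, averaged 2.25 CPM with DMSO and 1.29 CPM with erianin (edgeR adjusted p = 0.129).

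Of 18 Hippo kinases and YAP/TEAD factors, all were tested, with 1 called higher and 1 lower, against 7.22% and 7.69% of all genes, and a median log2 fold change of -0.02 beside 0.00 for all genes. TEAD2, a TEAD family member, fell from 52.9 ± 0.690 to 36.3 ± 0.628 CPM (SD, n = 3 each), at -0.54 on the log2 scale with a standard error of 0.07 and an adjusted p of 0.00567 from edgeR. The call was lost without erianin replicate 1 or 3, with edgeR adjusted p values reaching 0.0507. LATS2, a Hippo kinase that is also a YAP target, rose from 55.6 ± 2.13 to 75.2 ± 2.94 CPM (SD, n = 3 each), by 0.44 (standard error 0.08, edgeR adjusted p = 0.0119), and did not pass with the replicate block or when any 1 erianin library or DMSO replicate 1 was left out, where adjusted p values reached 0.0816 in edgeR. YAP1 itself was at -0.27 (edgeR adjusted p = 0.0828), with CPM of 121, 120 and 144 against 103, 109 and 108. It stayed below 0 in all 18 alternative fits and was called lower in 5. Among these were DESeq2, the fit with the GC correction and the fit without DMSO replicate 3 (-0.19, edgeR adjusted p = 0.000900). TEAD1 was at 0.17 and called higher without that library (0.39, edgeR adjusted p = 1.96e-08). With all libraries TEAD1, STK4 (-0.03) and MOB1A (-0.02) were not called. Without DMSO replicate 3, 7 of the 18 were called higher and 5 lower, beside 27.5% and 27.7% of all genes, and the median was 0.07 beside 0.02.

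**Figure D4:**
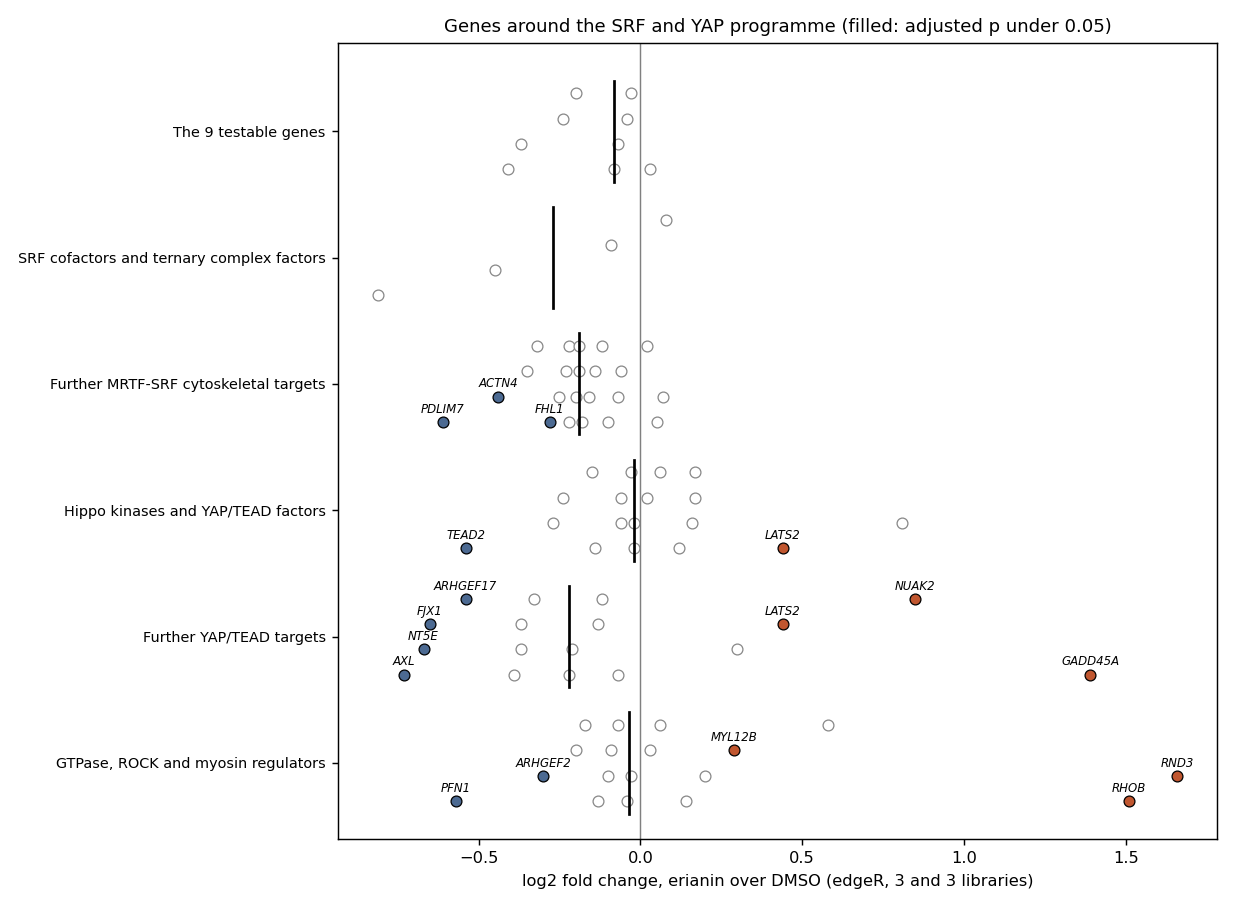
Log2 fold change of erianin over DMSO (x axis, edgeR, 3 libraries a group) for each tested gene of the contractile set and of the 5 lists around it (y axis), filled orange or blue where called higher or lower at an adjusted p under 0.05, with a black bar at the list median. Called genes are named, RND3 and RHOB lying farthest to the right at 1.66 and 1.51 and AXL being the lowest called gene at -0.73.

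Among 22 further cytoskeletal targets of MRTF and SRF, all tested, 3 were called lower and none higher, against 7.69% and 7.22% of all genes. Of the 22, 19 were below 0, with a median of -0.19 beside 0.00 for all genes tested. PDLIM7, a protein of stress fibres, fell from 356 ± 20.0 to 234 ± 2.68 CPM (SD, n = 3 each), at -0.61 on the log2 scale with a standard error of 0.07 and an adjusted p of 0.00351 from edgeR, and passed in all 18 alternative fits. ACTN4, an actin crosslinker, fell from 1993 ± 145 to 1470 ± 32 CPM (SD, n = 3 each), by 0.44 on the log2 scale (edgeR adjusted p = 0.0127), a call lost on TPM and without any 1 erianin library. FHL1, named after its value was seen, was the third, at -0.28 (edgeR adjusted p = 0.0300), and passed in 8 of 18 alternative fits, not when any library but DMSO replicate 3 was left out. ACTG1, FLNA and MYH9, the other abundant genes of the list, were at -0.16, -0.12 and -0.23 and were not called. Without DMSO replicate 3, 16 of the 22 were called lower and 3 higher, with 27.7% and 27.5% of all genes called in these directions.

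Among 21 further YAP and TEAD targets, CCN1 and CCN2 were listed at 0 in every library, 17 were tested, 3 were called higher and 4 lower, against 7.22% and 7.69% of all genes, and the median log2 fold change was -0.22 beside 0.00 for all genes. The called genes went both ways. AXL, a receptor tyrosine kinase, fell from 899 ± 42.4 to 543 ± 18.4 CPM (SD, n = 3 each), at -0.73 on the log2 scale with a standard error of 0.07 and an adjusted p of 0.00205 from edgeR, and passed in all 18 alternative fits. NT5E, the ecto-nucleotidase CD73, was lower, at -0.67 (edgeR adjusted p = 0.0225), and failed on TPM and without any 1 erianin library. GADD45A, a stress and growth arrest gene, rose from 122 ± 23.1 to 321 ± 6.89 CPM (SD, n = 3 each), by 1.39 (standard error 0.14, edgeR adjusted p = 0.00205) and in all 18 alternative fits. MYOF, an abundant membrane protein of the list, was at -0.37 (edgeR adjusted p = 0.0547). The other called genes, named here after their values were seen, were NUAK2 (0.85) and LATS2 upwards and FJX1 (-0.65) and ARHGEF17 (-0.54) downwards. NUAK2 failed without erianin replicate 2 or 3, ARHGEF17 on TPM and without any 1 erianin library, and FJX1 on TPM, with the replicate block and without any library but DMSO replicate 3. In the fit without DMSO replicate 3, 4 of the 17 were called higher and 9 lower, beside 27.5% and 27.7% of all genes.

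The regulators of small GTPases, ROCK and myosin held the 2 largest called increases of these lists. Of 18 genes tested, 3 were called higher and 2 lower, against 7.22% and 7.69% of all genes, with a median of -0.04 beside 0.00. RND3, an atypical small GTPase known to inhibit ROCK1, had 10.5, 11.5 and 18.6 CPM with DMSO and 46.5, 40.1 and 42.2 CPM with erianin, at 1.66 on the log2 scale with a standard error of 0.21 and an adjusted p of 0.00479 from edgeR. RHOB, an inducible small GTPase of endosomes and the plasma membrane, had 43.8, 40.1 and 28.2 CPM with DMSO and 102, 107 and 109 CPM with erianin, at 1.51 on the log2 scale with a standard error of 0.16 and an adjusted p of 0.00256 from edgeR. Both passed in all 18 alternative fits, and RHOB was named after its value was seen. PFN1, the actin monomer-binding profilin, fell from 1748 ± 324 to 1180 ± 37.8 CPM (SD, n = 3 each), by 0.57 on the log2 scale (edgeR adjusted p = 0.0282), and passed in 10 of 18 alternative fits, failing on TPM, with the GC correction, and without DMSO replicate 1 or any 1 erianin library. RHOA, CFL1 and DIAPH1 were at -0.13, -0.10 and -0.04 (edgeR adjusted p = 0.300, 0.359 and 0.743). ARHGEF2, an exchange factor for RHOA that microtubules hold inactive, was called lower, from 267 ± 4.68 to 217 ± 6.21 CPM (SD, n = 3 each, log2 fold change -0.30, edgeR adjusted p = 0.0211). It was named after its value was seen and passed in 9 of 18 alternative fits, not on TPM and not without any 1 erianin library or DMSO replicate 1 or 2. Without DMSO replicate 3, 8 of the 18 were called higher and 6 lower, beside 27.5% and 27.7% of all genes, and the median was 0.09 beside 0.02.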

How the data were processed

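Total RNA from CAL62 cells was sequenced on the BGISEQ-500 platform, with libraries made by an Illumina protocol per the labels. Raw counts of reads on each gene were deposited by the authors, with TPM values for the same libraries, which scale counts by gene length and library total. The submitters' processing notes name fastp 0.23.2, STAR 2.7.10, featureCounts 2.0.1, StringTie 2.2.1 and GRCh38 without roles, and the strand setting is not given in the sources used here. In the deposited TPM columns, rows with an Ensembl identifier added up to between 59.1% and 78.3% of a full TPM column. The TPM of rows without an identifier was not summed. The share was lowest in DMSO replicate 3, so TPM comparisons between libraries carry that difference.

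Rows without an identifier (26480 of 65807, at most 0.00515% of counts) were left out. Of 39168 identifiers, 38259 matched a symbol. Where an identifier stood on several rows, the row with most counts was taken. Counts were tested with edgeR 4.0.16 in R 4.3.3 (TMM, filterByExpr, glmQLFit, glmQLFTest, no block), with calls at a Benjamini-Hochberg adjusted p under 0.05. Intervals are 95% and derive from the quasi-likelihood F statistic. The study used DESeq2, run here as an alternative (1.42.0). TPM values were tested with limma 3.58.1 on log2(TPM + 1) for genes averaging 1 TPM or more. The GC correction removed each library's loess trend (span 0.5) on mean transcript GC content from GENCODE 29, known for 98.9% of tested genes. Steps were tested on simulated counts of 12818 genes, where edgeR recovered 199 of 200 genes changed 2-fold and called 4 unchanged ones. The simulated counts had the same fixed dispersion for all genes, no outlying library and no GC trend, and only well-counted genes were changed. Recovery there does not give the power for smaller changes in these libraries.

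The 10 genes and the lists around them were chosen with earlier results of these data known. Named from each list were its 4 most abundant genes and its largest called increase and decrease. Promoter windows came from RefSeq. A marker gene of the thyroid list is not reported here. Libraries with the same replicate number showed no shared deviation, by the correlations across genes given in the closing section. Whether the cultures were handled in pairs is not stated.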

Additional observations from a re-analysis of the deposited data

How the results depend on the processing

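The alternatives to the main fit were DESeq2, RLE or upper-quartile factors, low counts kept or cut at 10 in each library, 3 forms of limma on TPM, the replicate block, the GC offset, both together, and each library left out in turn. The GC offset with DMSO replicate 3 left out was added after seeing the data. Against 0 genes called higher and 0 lower, 1 was called higher by limma on log2(TPM + 1) (AMOTL2), 1 without a filter there (AMOTL2), and 1 with the GC offset and DMSO replicate 3 left out (AMOTL2). Called lower were 1 with DESeq2, 1 with the GC offset and 1 with the replicate block and the GC offset (VCL each time), and 3 with the GC offset and DMSO replicate 3 left out (ANKRD1, TAGLN and VCL). Across the fits that left out 1 library, between 0 and 1 gene was called higher and between 0 and 4 lower, the highest counts coming without DMSO replicate 3, where the biological coefficient of variation went from 0.139 to 0.0421. The causes of these differences were not tested.

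The log2 fold change changed sign for genes near 0. With upper-quartile factors SRF was at 0.02 and CALD1 at 0.01. With limma on TPM, at a pseudocount of 1, of 0.1, and of 1 with no filter, SRF was at 0.16, 0.17 and 0.16, MYL9 at 0.13 each time, CALD1 at 0.19, 0.20 and 0.19, ANKRD1 at 0.02 and ACTB at 0.12 each time, where the median of all genes was at 0.18, 0.20 and 0.12. With the GC offset and DMSO replicate 3 left out SRF was at 0.01 and CALD1 at 0.06. CALD1 was also at 0.00 with the replicate block, and from -0.19 to 0.26 over the fits that left out 1 library, being above 0 without DMSO replicate 3 (0.26) and without erianin replicate 2 (0.02). ACTA2, TAGLN and VCL stayed below 0 and AMOTL2 at or above 0.00 in all 18.

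Same-numbered libraries did not deviate together, with correlations across genes of 0.00138, 0.0253 and -0.0329 for the 3 replicate numbers in turn. Under the replicate block alone 0 genes were called higher and 0 lower, so the block changed no call among the 10 genes. Among the 6 lists' counts in each direction, between 1 and 15 of 34 alternatives per list moved by over 1.5 times. The share of ACTA2 in actin differed by -0.0244 percentage points in TPM and by -0.00599 in CPM. Depth limits CNN1 and ACTA2 most.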

Other observations

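Several well-known genes of the SRF and YAP programme are listed at exactly 0 counts in all 6 libraries, namely MRTFA, MRTFB, CCN1 and CCN2, although their cofactor and target partners were detected. A listing at 0 was more frequent among genes whose present symbol differs from the one in GENCODE release 29. Of 634 such protein-coding genes in the count table, 529 (83.4%) were at 0 in every library, against 2873 of 18425 (15.6%) with the same symbol in both. CCN1 and CCN2 are of the first kind, as CYR61 and CTGF in that release. MRTFA and MRTFB carry the same symbol in both. Nothing can be read from these tables about the expression of these 4 genes.

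Levels of paralogs of MYL9, TAGLN and ACTB are given by library, in order of replicate number. MYL12B was at 396, 376 and 342 TPM with DMSO and 539, 481 and 538 TPM with erianin, and MYL12A at 144, 147 and 103 against 147, 136 and 141 TPM. The ratio of TAGLN2 to TAGLN was 2.15, 2.36 and 2.73 with DMSO and 2.79, 2.82 and 2.93 with erianin, without overlap between the groups. ACTG1 to ACTB was 1.12, 1.08 and 1.09 with DMSO and 1.03, 1.05 and 1.02 with erianin, also without overlap. For MYL9 to MYL12A the groups overlapped, at 5.71, 5.24 and 6.73 with DMSO and 5.73, 6.02 and 5.93 with erianin. ACTB to ACTA2 overlapped too, at 396, 387 and 305 with DMSO and 460, 364 and 577 with erianin. Of all single genes tested, 38.7% had non-overlapping groups in CPM. These ratios were not tested, and 3 against 3 libraries cannot give an exact p under 0.10.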
